A study of Mus musculus with 18 samples.

Results

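The genes described here encode the protein parts of the cytosolic ribosome. They were taken by symbol from the platform annotation of the array: names that begin with Rpl or Rps followed by a digit, and Rplp0, Rplp1, Rplp2 and Rpsa, without the Rps6k kinase genes and without pseudogene symbols. A gene was kept where a probe set named it and no other gene, and its brightest such probe set stood for it. That rule gave 50 genes out of 18193 with a probe set of their own: 21 of the small subunit, 20 of the large subunit, 2 of the P stalk (Rplp0 and Rplp2), 6 paralogs and 1 gene that only shares the name, Rps19bp1, whose product binds Rps19. Rplp1 and Rpl3 had no such probe set and are not among them. The symbols chose the genes, not their measured values.

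RNA was measured on 18 Affymetrix whole-genome mouse arrays, 1 per mouse, from the liver of female B6C3F1 mice that were 18 weeks old after 13 weeks of exposure. In feed given on 7 days of the week, 3 mice received 1,5-naphthalenediamine at 2000 ppm, 3 received N-(1-naphthyl)ethylenediamine dihydrochloride at 2000 ppm and 3 received pentachloronitrobenzene at 8187 ppm, with 3 feed control mice. By gavage on 5 days of the week, 3 mice received 2,3-benzofuran at 240 mg/kg in corn oil, and 3 control mice received corn oil alone, at 5 ml/kg. The study classes 1,5-naphthalenediamine and 2,3-benzofuran as liver carcinogens and the other 2 chemicals as negative in the liver, so its question was whether expression after this exposure differs between the classes.

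Ribosomal proteins assemble with ribosomal RNA in the nucleolus into a small subunit, which decodes the messenger RNA, and a large subunit, which joins the amino acids. Their messenger RNAs are among the most abundant of any cell and carry a 5′ terminal oligopyrimidine tract, a run of C and T at the very start of the transcript, through which the mTOR kinase and the protein LARP1 regulate their translation. Their promoters mostly lack a TATA box. In the liver, ribosome content is known to follow growth, feeding and enlargement of the organ.

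The start sites of 8 members are shown because the tract described for these messenger RNAs lies there. These 8 are not a random sample, and the share of members with such a run is given below. The sequences come from RefSeq (GRCm38.p6) and run 5′ to 3′ from 30 bases before the annotated start to base 20 of the transcript, with the longest unbroken run of C and T in capitals where it has at least 8 bases and begins within 10 bases of the start.
Rps6 (chr4:86857348-86857397, minus strand): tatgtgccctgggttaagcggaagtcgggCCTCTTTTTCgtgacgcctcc
Rplp2 (chr7:141447621-141447670, plus strand): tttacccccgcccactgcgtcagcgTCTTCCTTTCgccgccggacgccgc
Rpl35 (chr2:39005112-39005161, minus strand): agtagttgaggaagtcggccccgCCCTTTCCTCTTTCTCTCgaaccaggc
Rpl38 (chr11:114668550-114668599, plus strand): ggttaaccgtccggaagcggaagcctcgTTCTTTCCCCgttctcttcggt
Rps18 (chr17:33955646-33955695, minus strand): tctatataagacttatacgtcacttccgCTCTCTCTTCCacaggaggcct
Rpl14 (chr9:120571487-120571536, plus strand): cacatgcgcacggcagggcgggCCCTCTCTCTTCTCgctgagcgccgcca
Rplp0 (chr5:115559437-115559486, plus strand): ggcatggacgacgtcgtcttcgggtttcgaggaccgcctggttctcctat
Rps15 (chr10:80292401-80292450, plus strand): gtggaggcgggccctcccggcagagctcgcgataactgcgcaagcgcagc
The first 6 hold such a run, the longest being the 18 bases of Rpl35, and Rplp0 and Rps15 hold none at their annotated start.

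Promoters of 44 of the 50 genes were in the RefSeq table, leaving out Rpl7, Rpl8, Rps4l, Rps14, Rps20 and Rps29. A run of that kind was present in 15 of the 44, which is 34.1%, against 10.3% of all 27025 genes of the table. The motif CCGGAA, read on both strands over 300 bases from 250 before the start to 50 after it, was present in 28 members (63.6%) and in 16.7% of all genes. AAGATGGC, also on both strands, was present in 4 members (9.09%) and in 3.19% of all genes, and TATAAA in 6 members (13.6%) and in 15.7%. On the opposite strand CCGGAA reads TTCCGG, whose first 4 bases can lie inside a run of C and T. These are matches of letters, and no binding was measured.

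Values are the log2 signals that the authors deposited. Array medians lay between 4.25 and 4.35, while the 75th percentile was 6.10 to 6.26 on the 6 control arrays and 6.32 to 6.41 on the 12 treated arrays, so brighter genes in general sat higher on treated arrays. Each change of a ribosomal protein gene is therefore set beside genes of similar signal. The level-matched change is the gene's log2 change minus the median change of the 500 tested genes nearest to it in mean signal, and carries no test. Only 35 members and 442 other tested genes had a mean signal of 11 or more, so the window of the brightest members reaches down to about that level. With 1,5-naphthalenediamine the genes outside the members had a median change of 0.18 at signals of 11 to 12 and 0.09 at 12 to 15. For the brightest members, such as Rps29, the level-matched change can therefore come out too low. The control probe sets for 18S ribosomal RNA read 6.11 to 6.67 on control arrays and above that on 6 treated arrays, namely 9.97 in 1,5-naphthalenediamine animal 4, 10.35, 11.56 and 6.97 in N-(1-naphthyl)ethylenediamine animals 12, 14 and 15, and 10.99 and 7.93 in 2,3-benzofuran animals 6 and 10. Hepatocyte genes were among the brightest on all arrays, with Alb between 14.37 and 14.49 and Apob between 12.20 and 13.16. In RNA from whole liver, a change in the number of cells of a type and a change in the RNA of each cell cannot be told apart.

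Most of these genes were near the top of the array's range. Of the 50 genes, 35 had a mean signal of 11 or more over the 18 arrays, and Rps29 of the small subunit had the highest, 13.04. Of the rest, 12 were dimmer but passed the filter, which asked for 3 arrays above the array's own median. Rps16, Rpl3l, the striated muscle form of Rpl3, and Rpl39l, a paralog of Rpl39 best known from testis, failed it, with means of 2.98, 3.28 and 3.17. The probe sets for Rpl12 and Rpl14 were above the median on 9 and 11 of the arrays, and those of the other 45 on all 18. Signals of different probe sets depend on the probes and are not compared as transcript levels.

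The mean signal of the bright members was higher in each treated group than in its own controls. Averaged over the 35 genes, the log2 signal was 11.86, 11.95 and 11.66 in feed controls 27, 28 and 29. It was between 12.08 and 12.19 with 1,5-naphthalenediamine, between 12.07 and 12.16 with N-(1-naphthyl)ethylenediamine, and between 12.03 and 12.07 with pentachloronitrobenzene. Corn oil controls read 11.81 to 11.99 and 2,3-benzofuran livers 12.11 to 12.23. No treated array overlapped with its controls, and feed control 29 was the lowest array of the series both for these genes and for other bright genes.

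**Figure D1:**
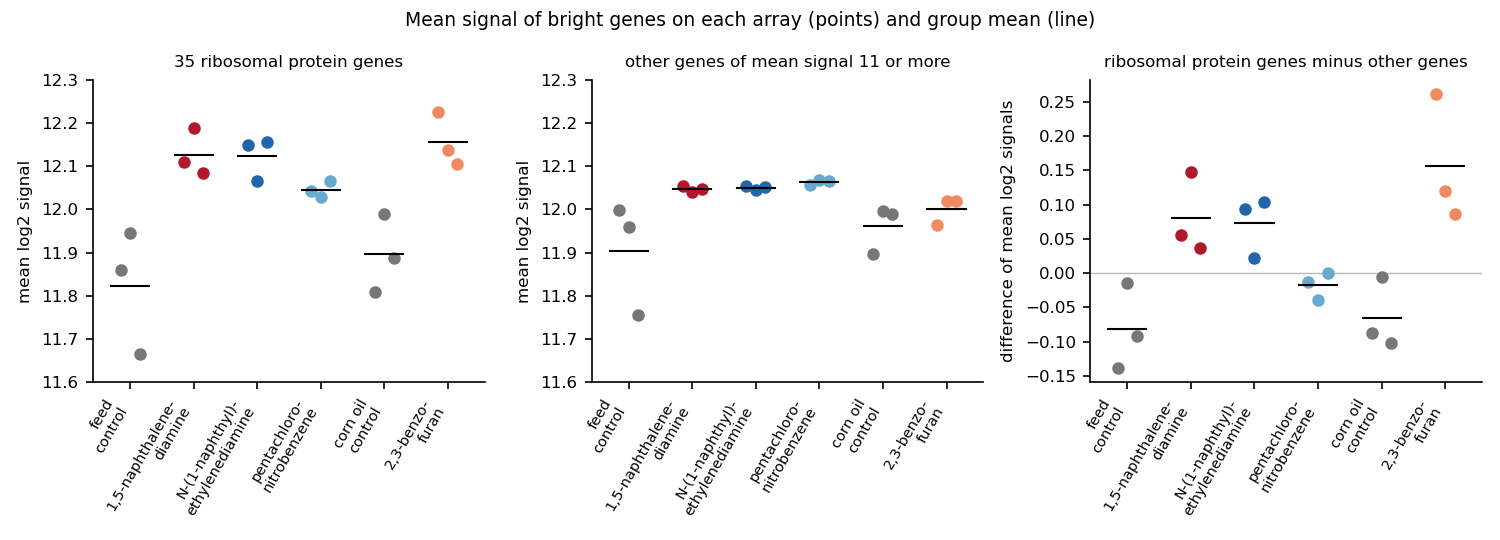
Mean log2 signal on each array (points) and per group (line) for the 35 ribosomal protein genes of mean signal 11 or more, for 442 other genes of that brightness, and the difference between the 2 means. The difference separates 1,5-naphthalenediamine, N-(1-naphthyl)ethylenediamine and 2,3-benzofuran from their controls, and pentachloronitrobenzene overlaps with the feed controls.

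Set against the 442 other genes of mean signal 11 or more, the excess was smaller. With 1,5-naphthalenediamine the bright members rose by 0.16 more than those genes on the log2 scale, and by 0.13 to 0.20 when 1 array at a time was left out. N-(1-naphthyl)ethylenediamine gave 0.15 (0.13 to 0.19) and 2,3-benzofuran 0.22 (0.17 to 0.26), and in these 3 comparisons no treated array overlapped with a control array. For pentachloronitrobenzene the excess was 0.06 (0.04 to 0.10), and for corn oil against feed controls 0.02 (-0.01 to 0.05), both with overlapping arrays. These are differences of means over genes and were not tested.

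Under 1,5-naphthalenediamine, 40 of the 47 members that passed the filter rose and none fell (limma, Benjamini-Hochberg adjusted p under 0.05 over 12169 genes). The background was high, since 31.5% of all tested genes rose and 8.41% fell, and 36.2% of the 442 other bright genes rose. Among the bright members 33 of 35 rose. In 40 of the 47 all treated arrays lay above all controls, against 34.9% of all tested genes. The median change of the members was 0.31, against 0.18 for all tested genes, and the median level-matched change was 0.12, with 42 of 47 above 0. By level-matched change Rpl14 and Rpl12 came first, but their control signals are not shown to be above background and no size is given for them. They were followed by Rps25 (0.87, with feed control signals close to the array medians), Rps6 (0.68) and Rps19 (0.35). The smallest were those of Rpl27a (-0.36), Rpl39 (-0.29), Rpl7l1 (-0.13), Rpl7 (-0.07) and Rps29 (-0.01). After cyclic loess normalization, which removes level-dependent differences between arrays and brings the median change of all genes from 0.18 to 0.00, 17 members rose and none fell, against 11.3% of all genes higher, 11.8% lower and 15.4% of other bright genes higher. Without feed control 29 the count was 24, and without treated animal 4, the array with the 18S signal of 9.97, it was 25. For this and later counts with arrays left out or covariates added, the share of all genes called is not given. Such counts do not show whether the members lost more calls than other genes.

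With N-(1-naphthyl)ethylenediamine 34 of 47 members rose and none fell, where 24.7% of all tested genes rose, 4.37% fell and 28.5% of other bright genes rose. Of the bright members 30 of 35 rose, and 36 of the 47 had treated arrays all above the controls (31% of all genes). The median change was 0.28, against 0.15 for all genes, with a median level-matched change of 0.11 and 37 members above 0. Beside Rpl14 and Rpl12, the largest level-matched changes were those of Rps25 (0.69), Rps6 (0.66) and Rpl35 (0.32), and those of Rps4l (-0.41), Rpl27a (-0.27), Rpl39 (-0.21), Rpl7l1 (-0.15) and Rps19bp1 (-0.06) were the smallest. After cyclic loess 14 rose and none fell, against 7.01% of all genes higher, 6.25% lower and 5.2% of other bright genes higher. RNA integrity numbers were 7.7 to 8.1 in this group and 8.8 to 9.1 in its controls, and the difference between 3′ and 5′ beta-actin probe sets was 1.45 to 1.85 against 0.90 to 0.99. With the integrity number as a covariate 2 members rose, and with the beta-actin difference 0, and the share of all genes called in these fits is not given. RNA quality and the chemical cannot be told apart here. Leaving out feed control 29 gave 19, and leaving out treated animal 12 gave 22.

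2,3-Benzofuran gave fewer calls, and the members' median was the farthest of the 4 chemicals above genes of similar brightness. Here 28 of 47 members rose and none fell, against 24.8% of all tested genes that rose, 7.58% that fell and 22.2% of other bright genes that rose. Of the bright members 22 of 35 rose, and 37 of the 47 had treated arrays all above the controls (35.6% of all genes). The median change was 0.27, against 0.11 for all genes, and the median level-matched change was 0.18, with 44 members above 0. Beside Rpl14 and Rpl12, the top were Rpsa (0.47), Rplp0 (0.41) and Rpl22l1 (0.35), and the last 5 were Rpl39 (-0.30), Rpl7l1 (-0.02), Rps29 (0.00), Rpl27 (0.03) and Rpl7 (0.04). Rpl12 did not pass the test on the deposited scale (adjusted p = 0.0711). After cyclic loess 18 members rose and none fell, against 12.9% of all genes higher, 10.9% lower and 14.5% of other bright genes higher. Without treated animal 6, whose 18S signal was 10.99, the count was 15, and without corn oil control 22 it was 17.

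Pentachloronitrobenzene gave the fewest calls of the 4 chemicals. Of 47 members 18 rose and none fell, against 14.6% of all tested genes that rose, 3.87% that fell and 18.6% of other bright genes that rose, and 14 of the 35 bright members rose. In 38 of the 47 all treated arrays lay above all controls (29.2% of all genes). The median change was 0.23, against 0.15 for all genes, and the median level-matched change 0.08, with 36 members above 0. Beside Rpl14 and Rpl12, Rps25 (0.59), Rpl22l1 (0.42) and Rps6 (0.36) led, and Rpl27a (-0.28), Rpl39 (-0.21), Rps19bp1 (-0.07), Rpl27 (-0.02) and Rpl8 (-0.01) were last. After cyclic loess the dim Rpl12 was the 1 member that rose and none fell, against 2.79% of all genes higher, 3.12% lower and 4.52% of other bright genes higher. The count rested on single arrays: it was 0 without treated animal 16, 1 without feed control 29, 5 without treated animal 18 or 20, and 28 without feed control 28. With the RNA integrity number as a covariate (8.4 to 8.8 here, 8.8 to 9.1 in the controls) it was 6, and no share of all genes is given for these refits.

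Corn oil against feed controls changed none of the 47 members by limma's adjusted p, where 0.123% of all tested genes rose and 0% fell, and 2 members had an unadjusted p under 0.05. After cyclic loess it was again 0 (0.0329% of all genes higher), with 4 members at an unadjusted p under 0.05. Their median change was 0.06 and their median level-matched change 0.00, with level-matched values from -0.29 for Rpl27a to 0.55 for Rps6. The mean over the 35 bright members differed by 0.07 between the 2 control groups, less than the spread between mice, which was 0.08 (pooled SD).

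**Figure D2:**
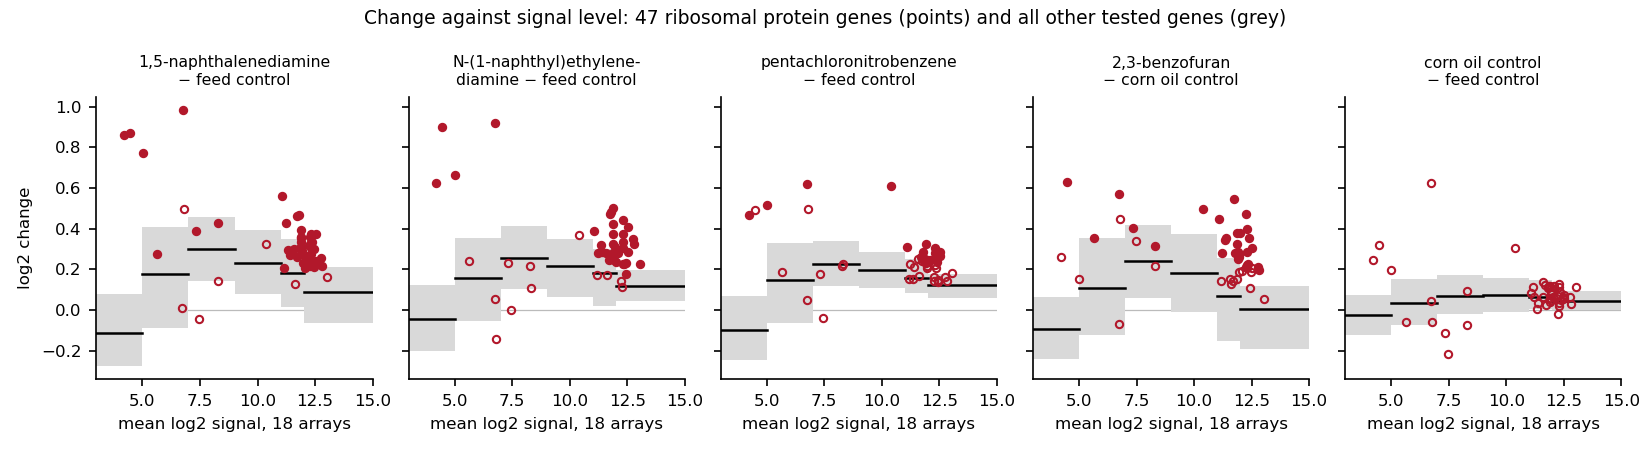
Log2 change of the 47 tested ribosomal protein genes against mean log2 signal in 5 comparisons; filled points passed limma's adjusted p of 0.05, black steps are the median of all other tested genes in a band of signal and grey the range between their quartiles. In the band from 12 to 15 the members' median under 2,3-benzofuran was 0.21 and that of the other genes 0.00.

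The P stalk is the flexible arm of the large subunit that recruits the translation factors. Rplp0, its base and a frequent reference gene in expression studies, read 12.01, 12.22 and 11.96 in the corn oil controls and 12.59, 12.57 and 12.44 with 2,3-benzofuran. The groups did not overlap, and the change was 0.47 ± 0.09 (SE, n = 3 per group; limma adjusted p = 0.00099), or 0.41 relative to genes of similar signal, and the call held after cyclic loess (adjusted p = 0.000834). With 1,5-naphthalenediamine Rplp0 rose by 0.25 ± 0.09 (adjusted p = 0.0332), and this call was lost after cyclic loess (adjusted p = 0.389) and when feed control 29 or any 1 treated animal was left out. For N-(1-naphthyl)ethylenediamine and pentachloronitrobenzene its changes of 0.14 each did not pass (adjusted p = 0.227 and 0.242). Rplp2, one of the acidic proteins of the stalk, read 11.66, 11.69 and 11.48 in feed controls, 11.89, 12.17 and 11.84 with 1,5-naphthalenediamine and 12.14, 11.95 and 12.01 with N-(1-naphthyl)ethylenediamine. Both treated groups lay above all 3 controls, by 0.35 ± 0.09 (adjusted p = 0.00479) and 0.43 ± 0.09 (adjusted p = 0.00304), and with 2,3-benzofuran it rose by 0.33 ± 0.09 (adjusted p = 0.00947). After cyclic loess the call with 1,5-naphthalenediamine was lost (adjusted p = 0.0961), and the other 2 held (0.0309 and 0.0488). Pentachloronitrobenzene gave 0.24 ± 0.09, which did not pass (adjusted p = 0.0642).

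In the small subunit, 19 of 20 tested genes rose with 1,5-naphthalenediamine, 17 with N-(1-naphthyl)ethylenediamine, 11 with 2,3-benzofuran and 9 with pentachloronitrobenzene. In that order 31.5%, 24.7%, 24.8% and 14.6% of all tested genes rose. After cyclic loess 8, 5, 6 and 0 of the 20 rose, against 11.3%, 7.01%, 12.9% and 2.79%. Rpsa, the small subunit protein also known as the laminin receptor precursor, read 11.37, 11.58 and 11.45 in corn oil controls and 12.06, 11.92 and 12.04 with 2,3-benzofuran, a rise of 0.55 ± 0.08 (adjusted p = 0.000165) or 1.46-fold. In feed controls it read 11.36, 11.61 and 11.34, against 11.84, 12.04 and 11.82 with 1,5-naphthalenediamine and 11.90, 11.87 and 11.96 with N-(1-naphthyl)ethylenediamine. These groups lay apart, with rises of 0.46 ± 0.08 (adjusted p = 0.000612) and 0.47 ± 0.08 (adjusted p = 0.00158), and all 3 calls held after cyclic loess (adjusted p = 0.000692, 0.0135 and 0.0177). Pentachloronitrobenzene arrays read 11.66 to 11.71, above all feed controls, but the change of 0.24 ± 0.08 did not pass (adjusted p = 0.0515).

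Rps6, the protein that S6 kinases phosphorylate downstream of mTOR, had the largest change of all members on the deposited scale in the 3 feed comparisons, on a probe set of moderate signal. It read 6.39, 5.94 and 5.75 in feed controls and 6.91, 7.22 and 6.90 with 1,5-naphthalenediamine, a rise of 0.98 ± 0.15 (adjusted p = 0.000193) or 1.98-fold. N-(1-naphthyl)ethylenediamine arrays read 7.16, 6.76 and 6.91, a rise of 0.92 ± 0.15 (adjusted p = 0.00128), and pentachloronitrobenzene arrays 6.72, 6.64 and 6.57, a rise of 0.62 ± 0.15 (adjusted p = 0.0138). Every feed-treated array was above every feed control. Corn oil controls were themselves at 6.78, 6.45 and 6.73, above the feed controls by 0.63 ± 0.15, which did not pass over all genes (adjusted p = 0.12). Against corn oil, 2,3-benzofuran arrays at 7.23, 7.10 and 7.35 were higher by 0.57 ± 0.15 (adjusted p = 0.00876). After cyclic loess the calls held except that with pentachloronitrobenzene (adjusted p = 0.0724), and that with 2,3-benzofuran was near the threshold (adjusted p = 0.0493).

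Rps19, mutated in Diamond-Blackfan anemia, rose with all 4 chemicals. Its signals were 10.77, 10.90 and 10.61 in feed controls and 11.24, 11.41 and 11.31 with 1,5-naphthalenediamine, a rise of 0.56 ± 0.09 (adjusted p = 0.000361), and the other rises were 0.45 ± 0.09 with 2,3-benzofuran, 0.39 ± 0.09 with N-(1-naphthyl)ethylenediamine and 0.31 ± 0.09 with pentachloronitrobenzene. After cyclic loess the calls for the 2 carcinogens were kept (adjusted p = 0.00573 and 0.0135). Rps15, chosen after its values were seen, is a small subunit protein needed for maturation of that subunit. It read 11.54, 11.63 and 11.34 in feed controls and 12.00, 11.91 and 12.04 with N-(1-naphthyl)ethylenediamine, a rise of 0.48 ± 0.09 (adjusted p = 0.00163), and with 2,3-benzofuran, where it rose by 0.28 ± 0.09, the call was lost after cyclic loess (adjusted p = 0.089). At the other end, Rps29 read 12.70 to 13.01 in feed controls and 13.01 to 13.09 with 1,5-naphthalenediamine, and its change did not pass (adjusted p = 0.076).

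Of the large subunit, 17 of 20 tested genes rose with 1,5-naphthalenediamine, 15 with N-(1-naphthyl)ethylenediamine, 12 with 2,3-benzofuran and 8 with pentachloronitrobenzene, against the same shares of all genes as for the small subunit. After cyclic loess 8, 8, 10 and 1 of the 20 rose, against 11.3%, 7.01%, 12.9% and 2.79% of all genes. Rpl35, which sits at the exit of the nascent chain, read 11.56, 11.78 and 11.50 in feed controls and 12.18, 12.00 and 12.16 with N-(1-naphthyl)ethylenediamine, a rise of 0.50 ± 0.09 (adjusted p = 0.00166). The carcinogens raised it by 0.39 ± 0.09 (1,5-naphthalenediamine) and 0.38 ± 0.09 (2,3-benzofuran), and these 3 calls held after cyclic loess (adjusted p = 0.00908, 0.0414 and 0.0141). Rpl38, Rpl13a and Rpl10a were chosen after their values were seen. They rose with all 4 chemicals on the deposited scale, by 0.27 to 0.41 (Rpl38, whose loss shortens the mouse tail), 0.25 to 0.44 (Rpl13a, also a translational repressor) and 0.29 to 0.38 (Rpl10a, a protein of the L1 stalk). After cyclic loess each rose with 3, pentachloronitrobenzene being the exception (adjusted p = 0.232, 0.38 and 0.101).

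The dim probe sets of Rpl14 and Rpl12 had calls whose size cannot be given. Rpl14 read 3.73, 4.19 and 3.72 in feed controls and 4.57, 4.86 and 4.82 with 1,5-naphthalenediamine (adjusted p = 0.00228). Rpl12, a protein at the base of the stalk, read 3.77, 3.84 and 3.65 against 4.54, 4.63 and 4.68 (adjusted p = 3.33e-05). In both, all treated arrays lay above all controls, but neither this nor the p-value is taken as support for a rise. In the controls the mean of both lay under the lowest array median of 4.25, so their level there is not shown to be above background. Because they passed the filter through the treated arrays, the counts were repeated with genes above the median on all 18 arrays: 38, 27, 32 and 18 of 45 members rose with 1,5-naphthalenediamine, 2,3-benzofuran, N-(1-naphthyl)ethylenediamine and pentachloronitrobenzene, and none fell. In that fit 42.4%, 34.9%, 32.2% and 19.5% of all genes changed in either direction. Rps25, required by several viral internal ribosome entry sites, read 4.42 to 4.76 in feed controls and 5.32 to 5.44 with 1,5-naphthalenediamine, a rise of 0.77 ± 0.15 (adjusted p = 0.00126), whereas its change of 0.15 ± 0.15 with 2,3-benzofuran did not pass (adjusted p = 0.478). Its feed controls lay above the medians of their arrays (4.32 to 4.35) but close to them, so the size of its rise with the feed chemicals is uncertain.

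Among members with a call, 10 rose with all 4 chemicals (Rpl4, Rpl10a, Rpl13a, Rpl19, Rpl38, Rps6, Rps7, Rps15, Rps18 and Rps19), 19 with 3, 10 with 2 and 3 with 1. After cyclic loess it was 1 with all 4 (Rpl12, whose control signal is not shown to be above background), 7 with 3 (Rpl10a, Rpl13a, Rpl14, Rpl35, Rpl38, Rps6 and Rpsa), 7 with 2 and 11 with 1, and 21 had no call. Of all 12169 tested genes 5.15% rose with all 4, 9.76% with 3, 13.7% with 2 and 18.4% with 1, and after cyclic loess 0.46%, 2.01%, 6.03% and 14.1%. The feed comparisons share their 3 controls, so a gene low in those mice counts in several. The level-matched change was above 0 with all 4 chemicals in 32 of the 47.

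**Figure D3:**
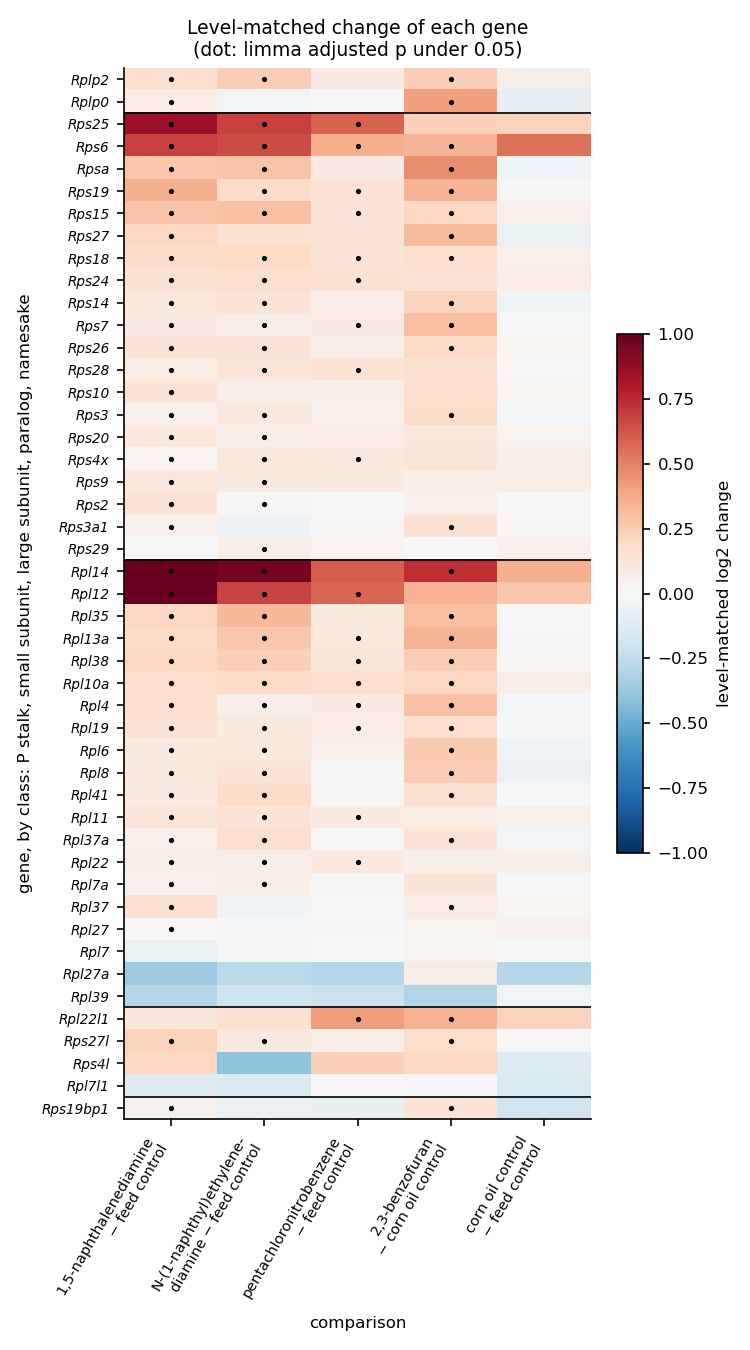
Level-matched log2 change (colour, limits of -1 and 1) of the 47 tested genes in the 5 comparisons, ordered by class and within a class by the mean over the chemicals; dots mark limma's adjusted p under 0.05 for the unmatched change. Rpl39 and Rpl27a are blue in most columns, and Rpl14, Rpl12, Rps25 and Rps6 are the darkest red, the first 2 with control signals not shown to be above background. Rps25 had feed control signals close to the array medians.

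No call was made with any chemical for Rpl7, Rpl27a, Rpl39, Rpl7l1 and Rps4l. Rpl39, a small protein of the exit tunnel, read 6.85, 6.78 and 6.51 in feed controls and 6.72, 6.72 and 6.73 with 1,5-naphthalenediamine, a change of 0.01 ± 0.13 with a 95% interval from -0.27 to 0.29. With 2,3-benzofuran it was -0.07 ± 0.13, and its level-matched change was below 0 with all 4 chemicals. Rpl27a, a large subunit protein, read 7.35, 7.79 and 7.33 in feed controls and 7.54, 7.31 and 7.49 with 1,5-naphthalenediamine, overlapping, with a change of -0.04 ± 0.13 (interval -0.33 to 0.25). Against corn oil controls at 7.31, 7.28 and 7.23, 2,3-benzofuran arrays at 7.69, 7.48 and 7.68 were all higher, but the change of 0.34 ± 0.13 did not pass (adjusted p = 0.0584). Within groups, over 18 arrays that share their scale across genes, the correlation with the mean of the bright members was r = 0.21 for Rpl27a and r = 0.71 for Rpl39.

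The paralogs differed among themselves. Rpl22l1, a paralog of Rpl22 with a tissue-dependent balance between both, read 10.30, 10.46 and 10.11 in corn oil controls and 10.94, 10.76 and 10.65 with 2,3-benzofuran, a rise of 0.50 ± 0.15 (adjusted p = 0.0202). With pentachloronitrobenzene it read 10.87, 10.50 and 10.41 against 10.06, 10.28 and 9.61, a rise of 0.61 ± 0.15 (adjusted p = 0.0155), the only paralog to rise with that chemical. Both calls were lost after cyclic loess (adjusted p = 0.084 and 0.0686). Rps27l, a p53 target similar to Rps27, rose with 1,5-naphthalenediamine from 11.14, 11.05 and 10.82 to 11.38, 11.45 and 11.46, by 0.43 ± 0.08 (adjusted p = 0.00104; 0.007 after cyclic loess), and by 0.28 ± 0.08 with both 2,3-benzofuran and N-(1-naphthyl)ethylenediamine. The last 2 calls were lost after cyclic loess (adjusted p = 0.0747 and 0.229), without corn oil control 22 or 2,3-benzofuran animal 6 or 8, and without feed control 29 or N-(1-naphthyl)ethylenediamine animal 12. Rps4l spread from 5.61 to 7.59 over the 18 arrays and each treated group overlapped with its controls, and Rpl7l1 changed by 0.11 to 0.22 with the 4 chemicals, none passing. The namesake Rps19bp1, which is no ribosomal protein, rose with 1,5-naphthalenediamine (0.39 ± 0.10; adjusted p = 0.00637) and 2,3-benzofuran (0.40 ± 0.10; adjusted p = 0.00613), and relative to genes of similar signal these changes were 0.04 and 0.14.

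**Figure D4:**
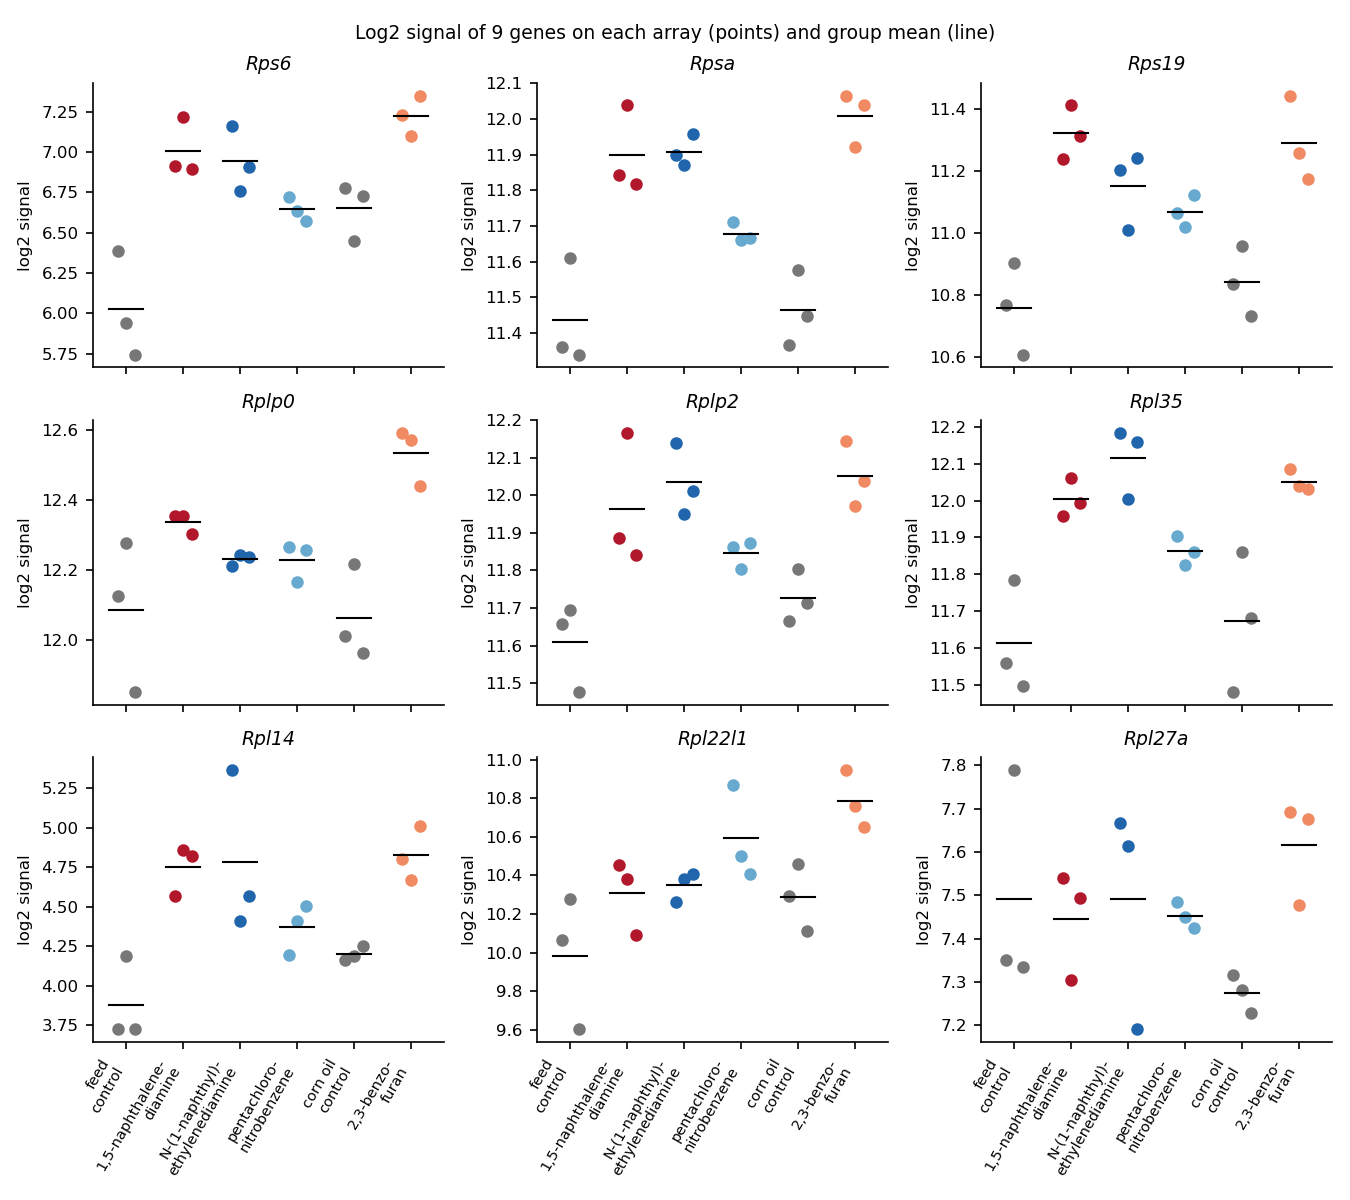
Log2 signal of 9 genes on each of the 18 arrays (points) with the group mean (line), each panel on its own scale. Rps6 is lowest in the feed controls and already higher in the corn oil controls, Rplp0 is highest with 2,3-benzofuran, and Rpl27a overlaps between 1,5-naphthalenediamine and its controls.

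Differences between the chemicals were tested directly. Between 1,5-naphthalenediamine and N-(1-naphthyl)ethylenediamine, fed at the same 2000 ppm, none of the 47 members differed by limma's adjusted p (3.51% of all tested genes were higher with the former and 1.96% lower), and 2 had an unadjusted p under 0.05. Rpl12 had the smallest p (adjusted p = 0.223), and no size is given for this dim probe set. The median difference was -0.01, and after cyclic loess again no member passed (3.89% of all genes higher, 3.67% lower; 3 members at an unadjusted p under 0.05). The mean effect of the 2 carcinogens minus that of the 2 negative chemicals passed for none of the members (3.8% of all genes were higher and 3.39% lower), again with 2 at an unadjusted p under 0.05. Rplp0 came first with 0.22 ± 0.08 (adjusted p = 0.104; interval 0.05 to 0.39), and after cyclic loess it was the 1 member that passed (0.24; adjusted p = 0.012), where 4.95% of all genes were higher and 4.68% lower. Rpsa followed Rps19bp1 with 0.15 ± 0.07 (adjusted p = 0.249).

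The effect of 2,3-benzofuran minus that of 1,5-naphthalenediamine, which compares effects across routes and control groups, passed for none of the members (0.362% of all genes were higher and 0.6% lower) and had 3 at an unadjusted p under 0.05. Rpl12, dim in both control groups, had the smallest p (adjusted p = 0.0746), and Rps25 followed at -0.62 ± 0.22 (adjusted p = 0.219). After cyclic loess the adjusted p of Rpl12 was 0.0518 and none passed (0.871% of all genes higher, 0.748% lower; 5 members at an unadjusted p under 0.05).

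Other probe sets on the array spoke to the same transcripts. The members have 46 further probe sets above the filter, for 21 genes, fitted here over all single-gene probe sets. At a mean signal of 9 or more, 21 of 32 rose with 1,5-naphthalenediamine (27.7% of all probe sets), 26 with N-(1-naphthyl)ethylenediamine (20.2%), 14 with 2,3-benzofuran (21.4%) and 8 with pentachloronitrobenzene (11.2%), and none fell. Below that level the probe sets of a gene did not move together. Named after their values were seen, dim probe sets of Rps3 and Rps24, with mean signals of 4.63 and 4.71, fell by 0.61 and 0.47 with 1,5-naphthalenediamine, while another dim probe set of each rose by 0.44 and 0.46, as did the bright ones used for these genes. Probe sets that name a ribosomal protein gene together with pseudogenes covered 24 ribosomal protein genes outside the members with 43 bright probe sets. Of these 33 rose with 1,5-naphthalenediamine (31.8% of that fit), 37 with N-(1-naphthyl)ethylenediamine (25.2%), 23 with 2,3-benzofuran (24.9%) and 16 with pentachloronitrobenzene (14.8%), and such probe sets cannot tell the gene from its copies.

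Genes that make or use ribosomes were described from lists, by the same test. Of 39 tested ribosome biogenesis genes, 21 rose with 1,5-naphthalenediamine, 15 with 2,3-benzofuran, 9 with N-(1-naphthyl)ethylenediamine and 5 with pentachloronitrobenzene, and none fell on the deposited scale. Of all tested genes 31.5%, 24.8%, 24.7% and 14.6% rose in that order, so the last 2 counts are near the background. Their median level-matched changes were 0.03, 0.01, 0.00 and -0.02, below those of the ribosomal protein genes, a difference that was not tested. After cyclic loess 6, 7, 2 and 0 rose, against 11.3%, 12.9%, 7.01% and 2.79% of all genes, and the last 2 counts are not above that background. In the other direction 1 fell with 2,3-benzofuran (10.9% of all genes) and 2 with N-(1-naphthyl)ethylenediamine (6.25%). Nhp2, a protein of the RNA-guided pseudouridylation complex, rose by 1.00 ± 0.11 with 1,5-naphthalenediamine by 1.07 ± 0.11 with 2,3-benzofuran, by 0.53 ± 0.11 with N-(1-naphthyl)ethylenediamine and by 0.40 ± 0.11 with pentachloronitrobenzene. The last 2 calls were lost after cyclic loess (adjusted p = 0.0719 and 0.332). Its partner Dkc1 rose by 0.88 ± 0.14 with 1,5-naphthalenediamine, 0.69 ± 0.14 with N-(1-naphthyl)ethylenediamine and 0.56 ± 0.14 with pentachloronitrobenzene. The last of these calls was lost after cyclic loess (adjusted p = 0.102). Ncl, the nucleolar protein nucleolin, rose by 0.69 ± 0.12 with 2,3-benzofuran. Of 30 translation factors 17, 14, 14 and 7 rose with 1,5-naphthalenediamine, 2,3-benzofuran, N-(1-naphthyl)ethylenediamine and pentachloronitrobenzene, against 31.5%, 24.8%, 24.7% and 14.6% of all genes. After cyclic loess 4, 7, 4 and 1 of these factors rose, against 11.3%, 12.9%, 7.01% and 2.79%, and the first and last counts are near their shares. Their median level-matched changes were 0.04, 0.06, 0.02 and 0.01. Among those that rose were Eif5b, which joins the subunits (0.86 ± 0.12 with 1,5-naphthalenediamine), Eif6, which keeps them apart (0.66 ± 0.11 with 2,3-benzofuran), and Eef2, the translocase (0.41 ± 0.09 with N-(1-naphthyl)ethylenediamine).

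Of 22 other transcripts that carry a 5′ terminal oligopyrimidine tract, 13, 6, 12 and 5 rose in the same order, against 31.5%, 24.8%, 24.7% and 14.6% of all genes. The count of 6 with 2,3-benzofuran is near its share, and 1 fell with that chemical (7.58% of all genes). After cyclic loess 4, 3, 8 and 1 rose, against 11.3%, 12.9%, 7.01% and 2.79% of all genes, and the counts for 2,3-benzofuran and pentachloronitrobenzene are near their shares. Fau, which encodes a ubiquitin-like protein fused to a small subunit protein, rose with all 4 chemicals, by 0.59 ± 0.08, 0.31 ± 0.08, 0.52 ± 0.08 and 0.29 ± 0.08. Its call with pentachloronitrobenzene was lost after cyclic loess (adjusted p = 0.264). Gas5, a host gene of small nucleolar RNAs, rose by 0.77 ± 0.12 with 1,5-naphthalenediamine and 0.52 ± 0.12 with pentachloronitrobenzene. It also rose with N-(1-naphthyl)ethylenediamine, by 0.59 ± 0.12, though not among the 3 named there by test statistic. The median level-matched changes of that list were 0.07, 0.03, 0.10 and 0.08. From the mTOR axis 6, 8, 7 and 1 of 19 rose, against the same 31.5%, 24.8%, 24.7% and 14.6% of all genes. The first of these counts is near its share and the last is below it. The median level-matched changes were 0.01, 0.10, 0.09 and -0.03. After cyclic loess 3, 3, 2 and 0 of the mTOR axis genes rose, against the same cyclic loess shares of all genes, and 2 fell with N-(1-naphthyl)ethylenediamine (6.25% of all genes). All these counts are close to their shares. Rptor, the scaffold of mTOR complex 1, rose by 0.53 ± 0.09 and 0.63 ± 0.09 with the 2 carcinogens, and by 0.43 ± 0.09 with N-(1-naphthyl)ethylenediamine, a call lost after cyclic loess (adjusted p = 0.0797). Rragc, a GTPase that recruits the complex to lysosomes, rose by 0.54 ± 0.12 with N-(1-naphthyl)ethylenediamine. Ddit4, an inhibitor of that complex, rose by 1.15 ± 0.29 and 1.25 ± 0.29 with the 2 carcinogens. Of 76 mitochondrial ribosomal protein genes 54, 40, 25 and 12 rose on the deposited scale, against 31.5%, 24.8%, 24.7% and 14.6% of all genes, and the last count is near its share. After cyclic loess 15, 17, 5 and 1 rose, against 11.3%, 12.9%, 7.01% and 2.79%, and the last 2 counts are not above that background. The median level-matched changes of these genes were 0.08, 0.08, -0.02 and -0.02. Mrpl19 rose by 0.92 ± 0.11 with 1,5-naphthalenediamine. With N-(1-naphthyl)ethylenediamine the cytosolic members had a median level-matched change of 0.11 against -0.02 for the mitochondrial ones, a difference that was not tested.

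Markers of hepatocytes and of other liver cells were measured on the same arrays. The mean level of 9 hepatocyte markers was 13.35 to 13.44 in feed controls and 13.38 to 13.50 with 1,5-naphthalenediamine. With N-(1-naphthyl)ethylenediamine it was 13.48 to 13.59 and with pentachloronitrobenzene 13.47 to 13.54, both above all feed controls. Bright genes in general rose on these arrays: the markers' median change was 0.08 with each, against 0.12 for tested genes of signal 12 to 15 outside the members. None of the 9 markers was called with either chemical. In corn oil controls it was 13.40 to 13.43, against 13.23 to 13.35 with 2,3-benzofuran, where all 3 arrays lay below the controls. Pck1 fell by 0.63 ± 0.16 and Cps1 by 0.21 ± 0.07 with 2,3-benzofuran, and with 1,5-naphthalenediamine Apob fell by 0.39 ± 0.13 and Tat rose by 0.39 ± 0.14. The call of Tat was lost after cyclic loess (adjusted p = 0.366). For 10 Kupffer cell and macrophage markers the mean level was 7.59 to 8.20 in feed controls and 7.39 to 7.99 with 1,5-naphthalenediamine. It was 7.85 to 8.18 with N-(1-naphthyl)ethylenediamine and 7.97 to 8.47 with pentachloronitrobenzene, and all 3 groups overlapped with the feed controls. Corn oil controls read 8.04 to 8.36, against 7.56 to 7.93 with 2,3-benzofuran. Of these markers 2 fell with 1,5-naphthalenediamine (8.41% of all tested genes fell) and 4 with 2,3-benzofuran (7.58%), Mpeg1 by 0.70 ± 0.13. None fell with the other chemicals, while Mpeg1 rose by 0.67 ± 0.13 with pentachloronitrobenzene. After cyclic loess 7 fell with 1,5-naphthalenediamine (11.8% of all genes) and 8 with 2,3-benzofuran (10.9%). With 2,3-benzofuran 3 of 8 endothelial, 1 of 8 stellate cell and 2 of 7 lymphocyte markers fell as well, against the same 7.58% of all genes, to which the stellate cell count is close. With N-(1-naphthyl)ethylenediamine 2 of 8 stellate cell and 1 of 3 cholangiocyte markers fell (4.37% of all genes), and 2 of 8 endothelial markers rose, near the 24.7% of all genes. The part of these markers in the changes of the ribosomal protein genes was not tested. A fit without animals 4, 6, 10, 12 and 14, whose 18S signal was the greatest, loses 2 of 3 arrays from the N-(1-naphthyl)ethylenediamine and 2,3-benzofuran groups. Their single arrays are then assumed to vary like those of the other groups. In that fit fewer members passed with each chemical than with all 18 arrays. The counts are not given, because 2 groups rest on 1 array each and the share of all genes that passed is not at hand.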

How the data were processed

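The authors deposited log2 signals per probe set; how they were normalized is not given in the sources used here. Probe sets take genes from the platform annotation, 34945 of 45101 naming 1 gene, 932 several and 9160 none, beside 64 control probe sets. Probe sets above the array median on at least 3 arrays were kept, with the brightest per gene, giving 12169 genes. limma 3.58.1 (R 4.3.3) fitted all 18 arrays, 3 mice per group, with a mean-variance trend; p-values were Benjamini-Hochberg adjusted over all genes, called under 0.05. It was tested on simulated data. Errors are SE; the number of arrays limits the precision. Named genes are the P stalk genes, Rpsa and Rps6, the 5 largest and 5 smallest level-matched changes per comparison, all paralogs, and 3 per list by test statistic; others are marked. Members, lists and rules were chosen with earlier results of these data known. Alternatives were other normalizations, filters, probe set rules, covariates and left-out arrays; the signal limit of 11, the beta-actin covariate and the extra probe sets were added after the data were seen.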

Additional observations from a re-analysis of the deposited data

Results flagged for a closer look

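The 18S ribosomal RNA control probe sets read higher on 6 treated arrays than on any control array, where the highest value was 6.67. Their values enter no comparison above, apart from the choice of the arrays left out of a fit. The mean log2 signal was 9.97 for 1,5-naphthalenediamine animal 4. For N-(1-naphthyl)ethylenediamine it was 10.35, 11.56 and 6.97 on animals 12, 14 and 15. For 2,3-benzofuran it was 10.99 on animal 6 and 7.93 on animal 10. Groups of 3 arrays are too small for a test of single outlying arrays.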

How the results depend on the processing

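No paired analysis was possible because the animal numbers differ between groups. Counts of members called are given in the order 1,5-naphthalenediamine, 2,3-benzofuran, N-(1-naphthyl)ethylenediamine and pentachloronitrobenzene, where the counts above were 40, 28, 34 and 18. Shares of all genes called are given above for the main fit and after cyclic loess, and not for the other settings listed here. Those other counts do not show whether the members lost more calls than genes in general. They were 15, 17, 12 and 1 after quantile normalization, 17, 18, 14 and 1 after cyclic loess, 7, 6, 10 and 0 with arrays centred on the tested genes, and 23, 13, 18 and 0 at an adjusted p under 0.01. Plain probe sets alone (20 members) gave 14, 10, 8 and 7, including 2 lower with each chemical but N-(1-naphthyl)ethylenediamine. Without the 5 arrays of highest 18S signal they were 16, 1, 6 and 8, and fitting only the arrays compared gave 14 for 1,5-naphthalenediamine, 13 for N-(1-naphthyl)ethylenediamine and 1 for pentachloronitrobenzene. The integrity number as covariate gave 2 for N-(1-naphthyl)ethylenediamine and 6 for pentachloronitrobenzene, the beta-actin covariate 0 for the former, and no mean-variance trend 9 for the latter. Carcinogens against negative chemicals gave 2 members after quantile normalization, 1 after cyclic loess and 1 with array weights. Leaving out 1 array at a time gave 24 to 42, 15 to 28, 19 to 39 and 0 to 28, for corn oil 0 to 1 and for the carcinogen contrast 0 to 2. The median level-matched change kept its sign under every alternative run for the 4 chemicals, with ranges on leaving out arrays of 0.10 to 0.15, 0.13 to 0.21, 0.10 to 0.15 and 0.04 to 0.11. Some alternatives could not test that sign. Centring and dropping the mean-variance trend leave the measure unchanged, and fitting only the arrays compared leaves the log2 changes unchanged. Quantile and cyclic loess normalization remove much the same level-dependent shift as level matching. Over 826 refits of the 45 calls of named members, 661 stayed past the threshold, 164 lost it and 1 reversed, Rplp0 with 1,5-naphthalenediamine at -0.0007 after centring. The causes were not tested.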
